A study of Mus musculus with 8 samples.

Results

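The plasminogen activator system was described through 7 genes, Plau, Plat, Plaur, Serpine2, Anxa2, S100a10 and Lrp1, out of 18306 genes in the count table. They were chosen by name, as the rows of the table with these symbols, and each of the 7 passed the filter on low counts, as did 11844 genes in all. The libraries came from C3H10T1/2, an established mesenchymal cell line of mouse embryo origin, in 2 groups of 4. One group was given 5 µM sphingosine 1-phosphate (S1P, a lipid that acts through G protein-coupled receptors) for 24 h, numbered 5 to 8, and the other the vehicle, 0.1% fatty acid-free albumin, for the same time, numbered 1 to 4. All cells had first been held without serum for 24 h and were within 10 passages of purchase. Whether each library is its own culture is not told by the labels, and the p-values cover the spread among libraries alone, which may be technical.

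Plasmin is the protease that dissolves fibrin and also cleaves matrix proteins and growth factors. It is cut from plasminogen, a protein made mainly by the liver, by 2 serine proteases, the urokinase-type activator (Plau) and the tissue-type activator (Plat). Plaur is the lipid-anchored receptor that holds urokinase on the cell surface, Serpine2 (protease nexin-1) is an inhibitor of both activators, plasmin and thrombin, Anxa2 and S100a10 form a surface complex that binds plasminogen and the tissue-type activator, and Lrp1 is an endocytic receptor that removes the tissue-type activator and activator-inhibitor complexes. In fibroblasts the system is known for its part in migration and matrix turnover.

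Library totals were 13750303 to 13761544 counts. Vehicle replicate 4 was above the other vehicle libraries in the median gene of high GC content. It was below them in the median gene of lower GC content. The values are given below with Lrp1. The 7 mesenchymal and fibroblast markers summed to 19573 to 25706 CPM (counts scaled by library total and TMM composition factors) in S1P libraries and 19613 to 26998 CPM in vehicle libraries. The 5 leukocyte markers summed to at most 0.734 CPM in S1P libraries and 1.11 CPM in vehicle libraries. Of the 4 epithelial markers only Cdh1 was found in the table, at most 2.18 CPM in S1P libraries and 2.83 CPM in vehicle libraries. The 4 endothelial markers summed to 17.2 to 44.0 CPM in S1P libraries and 36.5 to 76.9 CPM in vehicle libraries, nearly all of it Tek, while Cdh5 reached at most 0.0718 CPM in S1P libraries and 0.223 CPM in vehicle libraries and Kdr at most 0.0734 CPM in S1P libraries and 0 in vehicle libraries. Whether cells of these other types were present was not tested, nor was any part of them in the results.

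After S1P the tissue-type activator gene Plat was higher, and it was the only member of the 7 that passed the test over all genes, with none lower (quasi-likelihood test of edgeR with Benjamini-Hochberg (BH) adjustment, threshold 0.05). Over all 11844 tested genes, 8.50% passed, 5.60% higher and 2.90% lower, so 1 of 7 is near the background. At an unadjusted p under 0.05 Plaur was also higher and Lrp1 lower, 3 of 7 members in all against 24.9% of all tested genes. The groups did not overlap for Plat and Lrp1, 2 of 7 members, against 19.1% of tested genes; 1 member was higher without overlap (11.9% of all genes) and 1 lower (7.21%). The median log2 fold change was 0.09 over the 7 members and -0.04 over all tested genes. Plau, Serpine2, Anxa2 and S100a10 did not pass at either level. In such bulk libraries fewer cells with a transcript and less of it per cell cannot be told apart.

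Per kilobase of exon, the order of the mean levels was the same in both groups. Anxa2 stood first with 293 ± 50.4 CPM per kb in S1P libraries and 333 ± 55.9 CPM per kb in vehicle libraries (SD, n = 4 each), followed by S100a10 with 245 ± 48.5 CPM per kb in S1P libraries and 231 ± 45.1 CPM per kb in vehicle libraries. Serpine2 came next with 100.3 ± 59.1 CPM per kb in S1P libraries and 147 ± 73.6 CPM per kb in vehicle libraries, and then Lrp1 with 68.17 ± 12.002 CPM per kb in S1P libraries and 137 ± 71.9 CPM per kb in vehicle libraries. The proteases and their receptor were far lower, with Plau at 7.27 ± 1.01 CPM per kb in S1P libraries and 6.50 ± 1.15 CPM per kb in vehicle libraries. Plat had 3.85 ± 0.230 CPM per kb in S1P libraries and 1.95 ± 0.799 CPM per kb in vehicle libraries, and Plaur 1.88 ± 0.803 CPM per kb in S1P libraries and 0.830 ± 0.475 CPM per kb in vehicle libraries. The libraries of neighbouring genes overlapped between Anxa2 and S100a10 and between Serpine2 and Lrp1 in both groups, and between S100a10 and Serpine2 in vehicle libraries. The other neighbours in this order did not overlap. Exon lengths were taken from the GENCODE M21 annotation as the union of all exons of a gene, so rarely used exons lower a level per kb.

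**Figure D1:**
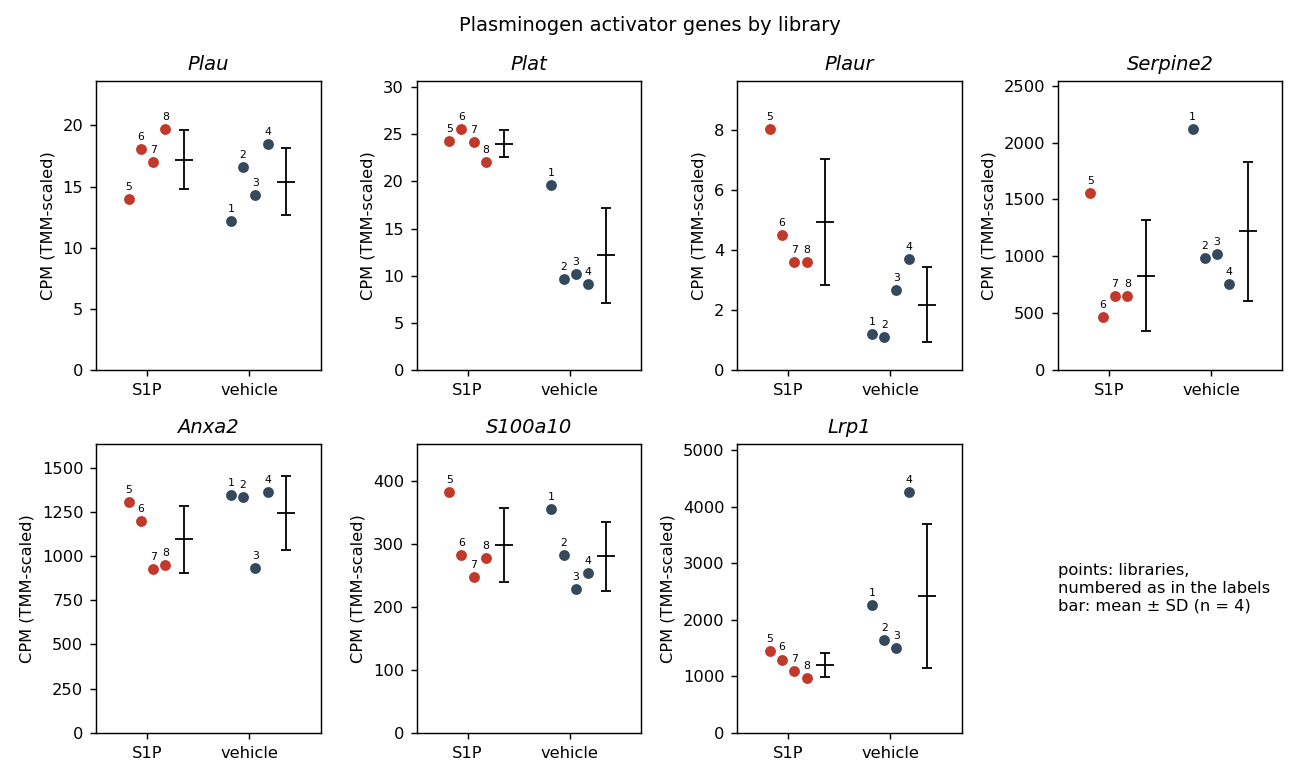
TMM-scaled CPM of the 7 genes (vertical axes, linear, from 0) in the 4 S1P libraries (red) and the 4 vehicle libraries (dark blue), each point a library numbered as in the labels and each bar the mean ± SD. The S1P libraries of Plat sit between 22.1 and 25.5 CPM, all above the vehicle libraries, of which replicate 1 is nearest at 19.6 CPM.

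Plat (ENSMUSG00000031538, chromosome 8, 23868016 to 23893519 in mm9) had 24.3, 25.5, 24.2 and 22.1 CPM in S1P replicates 5 to 8, and 19.6, 9.65, 10.2 and 9.15 CPM in vehicle replicates 1 to 4. Every S1P library lay above every vehicle library, and vehicle replicate 1 lay far closer to the S1P libraries than to the other vehicle libraries. The mean was 24.0 ± 1.43 CPM after S1P and 12.2 ± 4.99 CPM with vehicle (SD, n = 4 each), a 1.97-fold difference with a 95% interval of 1.35-fold to 2.89-fold (log2 fold change 0.98, SE 0.25, edgeR, BH-adjusted p = 0.0389). The S1P libraries varied by 5.97% (coefficient of variation), close to the 5.50% that counting error alone gives at these counts, while the vehicle libraries varied by 41.0%, against 7.73% from counting. The call was lost when any of 6 libraries was left out, namely S1P replicate 5, 6, 7 or 8 or vehicle replicate 2 or 3 (edgeR, BH-adjusted p of 0.0724 to 0.117), and it was kept without vehicle replicate 1 (log2 fold change 1.29, BH-adjusted p = 0.00209 in edgeR). In those 8 fits the log2 fold change ranged from 0.87 to 1.29, so the direction held in each. DESeq2 and limma-voom also called Plat (BH-adjusted p = 0.00292 and BH-adjusted p = 0.0191).

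Plau (ENSMUSG00000021822, chromosome 14, 21655684 to 21662810 in mm9), the urokinase gene, had 14.0, 18.1, 17.0 and 19.7 CPM in S1P replicates 5 to 8, and 12.2, 16.6, 14.3 and 18.5 CPM in vehicle replicates 1 to 4. The groups overlapped over most of their range. The fold change was 1.12 with a 95% interval of 0.852 to 1.47 (log2 fold change 0.16, SE 0.17, edgeR, BH-adjusted p = 0.593). Within a library, the ratio of Plat counts to Plau counts needs no scaling. It was 1.73, 1.41, 1.42 and 1.12 in S1P replicates 5 to 8, and 1.60, 0.580, 0.715 and 0.496 in vehicle replicates 1 to 4. Plat counts exceeded Plau counts in all 4 S1P libraries and, among the vehicle libraries, in replicate 1 alone, so the groups overlapped through that library. These ratios are of counts and not per length, so only their differences between libraries can be read.

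**Figure D2:**
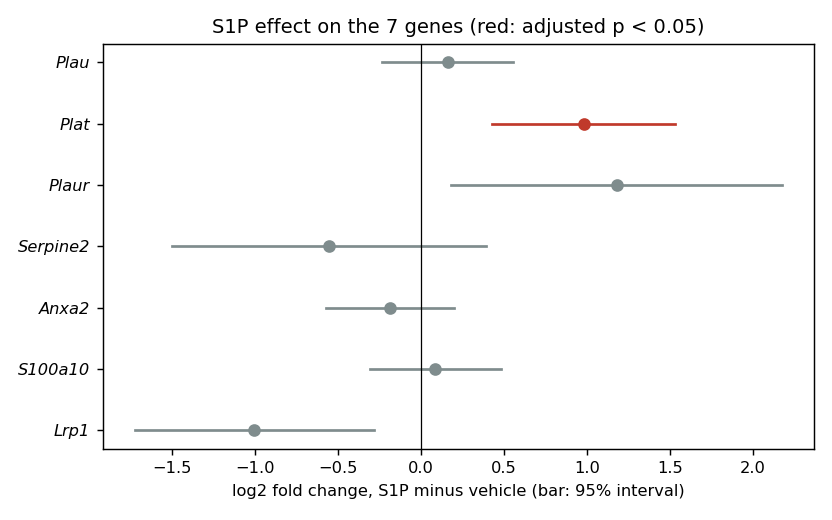
Log2 fold change of the 7 genes, S1P minus vehicle (horizontal axis), with 95% intervals from the quasi-likelihood fit, red where the adjusted p is under 0.05. Plat at 0.98 is the only red gene, and the intervals of Plaur and Lrp1 also leave out 0.

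Plaur (ENSMUSG00000046223, chromosome 7, 25247319 to 25261092 in mm9), the urokinase receptor gene, rested on few reads. It had 111, 62, 49 and 50 counts in S1P replicates 5 to 8, and 17, 15, 36 and 51 counts in vehicle replicates 1 to 4. In CPM these were 8.01, 4.51, 3.598 and 3.592 after S1P and 1.21, 1.11, 2.66 and 3.70 with vehicle. S1P replicates 5 and 6 lay above every vehicle library, and S1P replicates 7 and 8 lay just below vehicle replicate 4, through which the groups overlapped. The mean was 4.93 ± 2.10 CPM after S1P and 2.17 ± 1.24 CPM with vehicle (SD, n = 4 each; log2 fold change 1.18, SE 0.44, 2.26-fold, edgeR, BH-adjusted p = 0.139). Its spread, 42.6% in S1P libraries and 57.3% in vehicle libraries, was above what counting gives, 12.1% in S1P libraries and 18.3% in vehicle libraries. On all 8 libraries neither DESeq2 nor limma-voom called Plaur (BH-adjusted p = 0.0706 and BH-adjusted p = 0.105). Plaur passed when vehicle replicate 4 was left out (log2 fold change 1.57, edgeR, BH-adjusted p = 0.0393), and without S1P replicate 5 the log2 fold change was 0.84. The ratio of Plau to Plaur counts was 1.75, 4.02, 4.73 and 5.48 in S1P replicates 5 to 8, and 10.1, 14.9, 5.36 and 4.98 in vehicle replicates 1 to 4. The ratio was lowest in S1P replicate 5 and highest in vehicle replicates 1 and 2, and the groups overlapped.

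Serpine2 (ENSMUSG00000026249, chromosome 1, 79790572 to 79855471 in mm9), the inhibitor, varied more within the groups than between them. It had 1554, 467, 656 and 649 CPM in S1P replicates 5 to 8, and 2117, 982, 1018 and 757 CPM in vehicle replicates 1 to 4. S1P replicate 5 and vehicle replicate 1 were the highest libraries of their groups, and the other 3 S1P libraries lay below every vehicle library. The mean was 832 ± 490 CPM after S1P and 1218 ± 610 CPM with vehicle (SD, n = 4 each; log2 fold change -0.55, SE 0.42, 95% interval -1.497 to 0.40, edgeR, BH-adjusted p = 0.441). Counting error accounts for 0.933% in S1P libraries and 0.771% in vehicle libraries, against a spread of 58.9% in S1P libraries and 50.04% in vehicle libraries. Leaving out S1P replicate 5 gave a log2 fold change of -1.04 and leaving out vehicle replicate 1 gave -0.17, without a call in either fit (edgeR, BH-adjusted p = 0.112 and BH-adjusted p = 0.806).

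Plau and Serpine2 ran opposite to each other from library to library. Over the 8 libraries their log2 CPM values correlated at r = -0.90 (Spearman rho -0.88), and at -0.88 for deviations from the group means. This was the most negative of the 21 pairs of members, whose r ranged up to 0.68, and it was -0.85 without vehicle replicate 1 and S1P replicate 6, the libraries farthest from the median of Serpine2. The 8 points share 2 treatments and common library scaling, and the pair was picked out after its value was seen. The ratio of Plau to Serpine2 counts was 0.00901, 0.0388, 0.0260 and 0.0303 in S1P replicates 5 to 8, and 0.00577, 0.0169, 0.0140 and 0.0244 in vehicle replicates 1 to 4. The lowest ratio of each group was in S1P replicate 5 and vehicle replicate 1, and the groups overlapped.

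Anxa2 and S100a10 encode the subunits of the annexin A2 complex, and neither passed the test. Anxa2 (ENSMUSG00000032231, chromosome 9, 69301227 to 69339802 in mm9) had 1308, 1196, 925 and 948 CPM in S1P replicates 5 to 8, and 1343, 1334, 930 and 1362 CPM in vehicle replicates 1 to 4. Its fold change was 0.881 with a 95% interval of 0.674 to 1.15 (edgeR, BH-adjusted p = 0.532), and vehicle replicate 3 lay well below the other vehicle libraries. S100a10 (ENSMUSG00000041959, chromosome 3, 93358802 to 93368765 in mm9) had 382, 283, 247 and 277 CPM in S1P replicates 5 to 8, and 355, 282, 229 and 254 CPM in vehicle replicates 1 to 4. Its fold change was 1.06 with a 95% interval of 0.808 to 1.40 (edgeR, BH-adjusted p = 0.782). S1P replicate 5 and vehicle replicate 1 held the highest S100a10 values of their groups. The ratio of S100a10 to Anxa2 counts was 0.292, 0.237, 0.268 and 0.292 in S1P replicates 5 to 8, and 0.265, 0.211, 0.246 and 0.187 in vehicle replicates 1 to 4. This was the tightest of the 4 ratios examined, and its groups overlapped too.

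Lrp1 (ENSMUSG00000040249, chromosome 10, 126975017 to 127058404 in mm9), the clearance receptor, was lower in every S1P library than in every vehicle library. It had 1456, 1298, 1102 and 974 CPM in S1P replicates 5 to 8, and 2270, 1646, 1500 and 4263 CPM in vehicle replicates 1 to 4. The 2 groups came close between S1P replicate 5 and vehicle replicate 3, and vehicle replicate 4 was far above all other libraries. The mean was 1208 ± 213 CPM after S1P and 2420 ± 1274 CPM with vehicle (SD, n = 4 each; log2 fold change -1.003, SE 0.32, fold change 0.499, edgeR, BH-adjusted p = 0.0883), which did not pass. Without vehicle replicate 4 the log2 fold change was -0.58 (edgeR, BH-adjusted p = 0.0679). DESeq2 called it on all 8 libraries (BH-adjusted p = 0.0152). The longest annotated Lrp1 transcript has a GC content of 57.9%, against a median of 49.3% over the tested genes. Vehicle replicate 4 held 2.36 times the mean of the other vehicle libraries for Lrp1 (log2 1.24, with 0.1 CPM added), and among the 781 tested genes within 1 percentage point of that GC content the median of the same log2 ratio was 1.04, with 65.2% of them below Lrp1. For Plaur, with a GC content of 53.0%, vehicle replicate 4 held 2.16 times the other vehicle libraries (log2 1.11), against a median of 0.31 among genes of like GC content. The medians of genes of lower GC content went the other way. For Plat, with a GC content of 45.8%, the log2 ratio was -0.52, against a median of -0.33 among genes of like GC content. For Serpine2, with 45.7%, it was -0.86, against a median of -0.33, with 7.91% of those genes below it. Not every member went with the median of its GC content. For Plau, with 48.3%, the log2 ratio was 0.36, against a median of -0.15, with 89.0% of those genes below it. For S100a10, with 51.4%, it was -0.18, against a median of 0.09. For Anxa2, with 51.7%, it was 0.18, against a median of 0.14. Without vehicle replicate 4 Plat kept its call (log2 fold change 0.87, edgeR, BH-adjusted p = 0.0435). The part of this difference in the Lrp1, Plaur, Plat and Serpine2 results was not tested beyond leaving that library out.

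**Figure D3:**
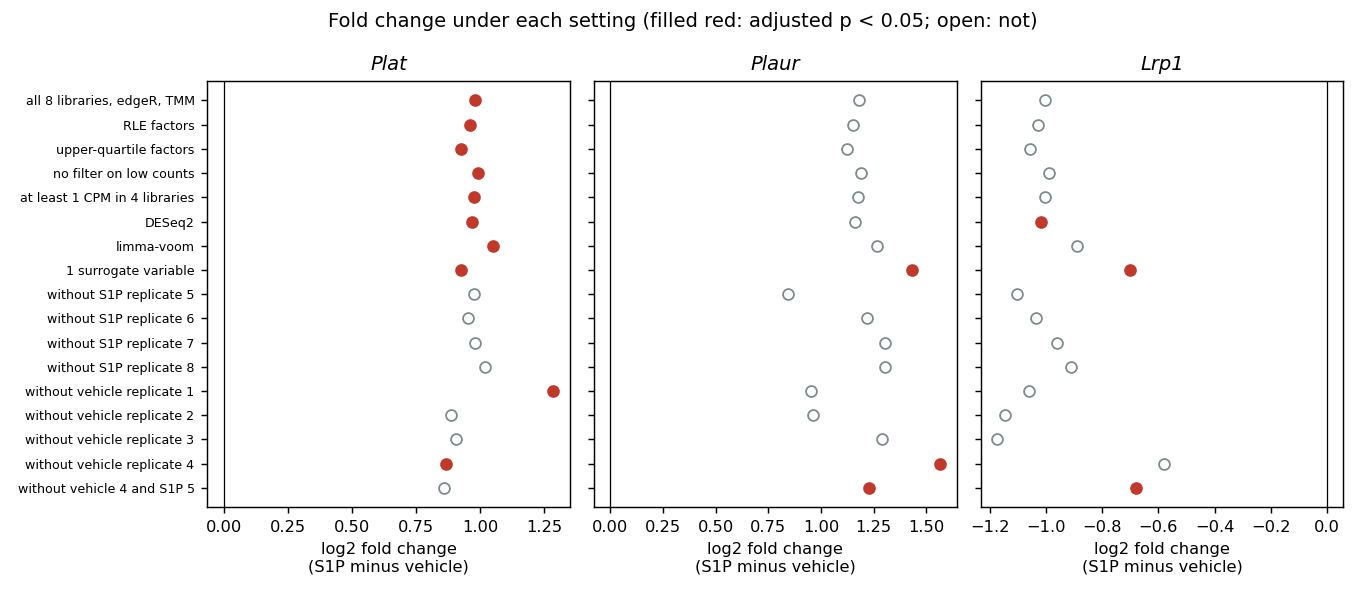
Log2 fold change, S1P minus vehicle, of Plat, Plaur and Lrp1 (horizontal axes) under each setting tried (rows), filled red where the adjusted p is under 0.05 and open where it is not. No point crosses 0, from 0.86 to 1.29 for Plat, 0.84 to 1.57 for Plaur and -1.18 to -0.58 for Lrp1, while the calls change with the libraries used.

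Promoter windows of 300 bases, from 250 before to 50 after the RefSeq start in GRCm38.p6, were at hand for 4 of the 7 genes. Of these, 3 are shown: Plaur, Anxa2 and Lrp1. None of them passed in the edgeR fit of treatment alone on all 8 libraries. On all 8 libraries the fold change of Plaur was the highest of the members (without S1P replicate 5 or vehicle replicate 1, Plat was higher). That of Lrp1 was the lowest on all 8 libraries. Without vehicle replicate 4, Serpine2 was lower than Lrp1 (log2 fold change -0.72 against -0.58, edgeR). With S1P replicate 5 also left out, Serpine2 was again the lower (-1.22 against -0.68). The windows read 5′ to 3′ on the gene's strand. Capitals mark matches, on either strand, to 6 motifs. The AP-1 motif was searched as TGANTCA. For the SP1 motif the letters were GGGCGG, and for the TEAD motif they were GGAATG. The ETS motif was written CAGGAAGT. The TATA motif was written TATAAA, and the last was the CArG box by name. The Plaur window is chr7:24462233-24462532 on the plus strand, the Anxa2 window chr9:69453433-69453732 on the plus strand and the Lrp1 window chr10:127621099-127621398 on the minus strand.
Plaur: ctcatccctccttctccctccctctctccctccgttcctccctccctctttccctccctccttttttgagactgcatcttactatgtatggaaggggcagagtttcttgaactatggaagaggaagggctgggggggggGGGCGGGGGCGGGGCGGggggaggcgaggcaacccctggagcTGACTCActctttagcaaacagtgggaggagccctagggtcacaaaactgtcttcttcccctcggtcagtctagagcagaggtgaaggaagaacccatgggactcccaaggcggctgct
Anxa2: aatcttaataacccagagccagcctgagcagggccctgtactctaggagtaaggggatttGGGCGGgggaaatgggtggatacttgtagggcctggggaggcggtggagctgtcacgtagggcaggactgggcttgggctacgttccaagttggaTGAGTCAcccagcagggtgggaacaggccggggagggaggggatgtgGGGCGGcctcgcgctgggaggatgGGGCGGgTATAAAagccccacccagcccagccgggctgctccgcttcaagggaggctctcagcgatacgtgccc
Lrp1: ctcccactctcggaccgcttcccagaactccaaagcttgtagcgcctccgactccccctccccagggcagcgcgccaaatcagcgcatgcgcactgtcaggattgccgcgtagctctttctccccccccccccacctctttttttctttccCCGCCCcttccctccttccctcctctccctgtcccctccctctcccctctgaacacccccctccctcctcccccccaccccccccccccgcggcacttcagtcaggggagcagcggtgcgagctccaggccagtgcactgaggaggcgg
The AP-1 letters occurred once in Plaur, starting 69 bases before the start site, and once in Anxa2, starting 95 bases before it, and 7.79% of 32544 RefSeq promoter windows hold them. SP1 letters occurred 3 times in Plaur, where the last 2 matches overlap by a base, 3 times in Anxa2 and once, on the opposite strand, in Lrp1, against 35.9% of windows with a match. Anxa2 also held TATAAA, found in 13.6% of windows. The window of Serpine2, which is not shown, held the SP1 letters 6 times and no match to the other motifs. The AP-1 letters are thus in the window of Plaur, which on all 8 libraries passed only with a surrogate variable. They are also in that of Anxa2, which passed in no setting. No TEAD, ETS or CArG box match occurred in these windows, and such matches occur in 14.6%, 3.34% and 1.64% of all windows. A match is a description of letters, not of binding.

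The rest of the plasminogen system was followed through a list of 48 further genes, of which 43 were found and 36 tested. Of these 36 genes, 5 rose, 4 fell and 27 did not pass over all genes (edgeR quasi-likelihood test, Benjamini-Hochberg adjusted), with a median log2 fold change of 0.07, against 8.50% of all tested genes. Of the 9 genes that passed, 6 belonged to the list of targets of plasmin or its activators. In it 3 of 9 tested genes rose and 3 fell, against 5.60% higher and 2.90% lower over all tested genes. All these lists were chosen with earlier results of these data known, so the counts are not read as a result about the lists. The growth factor gene Pdgfc, whose protein is activated by the tissue-type activator, had 21.1 ± 5.98 CPM after S1P and 8.10 ± 2.16 CPM with vehicle (SD, n = 4 each), a 2.60-fold rise (edgeR, BH-adjusted p = 0.0130). Pdgfd, whose protein is activated by urokinase, had 50.3 ± 5.09 CPM after S1P and 22.2 ± 3.51 CPM with vehicle, a 2.27-fold rise (edgeR, BH-adjusted p = 0.00305). The thrombin receptor gene F2r, whose protein plasmin can also cut, rose 1.51-fold. Of the 4 tested metalloproteinase genes of the list 3 fell, with Mmp9 at 2.12 ± 0.871 CPM after S1P and 18.6 ± 7.30 CPM with vehicle, Mmp14 at 372 ± 42.7 CPM after S1P and 653 ± 123 CPM with vehicle, and Mmp2 at 373 ± 21.9 CPM after S1P and 566 ± 60.6 CPM with vehicle. The remaining one, Mmp3, had 0.473 ± 0.557 CPM after S1P and 3.63 ± 3.62 CPM with vehicle and did not pass (edgeR, BH-adjusted p = 0.144). F2r, Mmp2 and Mmp3 are named after their values were seen. Without S1P replicate 6 the calls of Pdgfc, Mmp14 and Mmp2 were lost, and without S1P replicate 8 those of Mmp14 and Mmp2 (edgeR, BH-adjusted p of 0.0512 to 0.0580). Over the list of 36, 1 gene was lower without S1P replicate 6 or without S1P replicate 8, and 9 were higher without vehicle replicate 4.

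**Figure D4:**
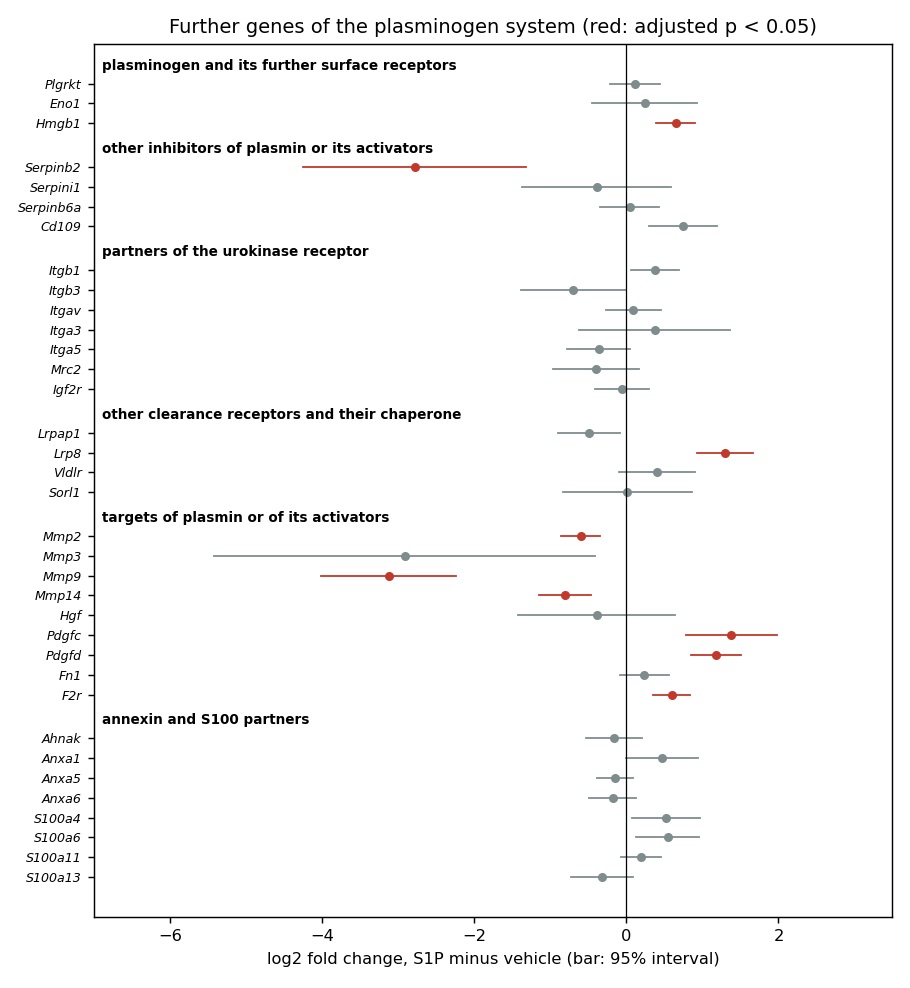
Log2 fold change, S1P minus vehicle (horizontal axis), with 95% intervals, of the tested further genes of the plasminogen system, but for 1 not reported here, in 6 groups by role, red where the adjusted p is under 0.05. Pdgfc, Pdgfd and F2r lie to the right of 0 and Mmp9, Mmp14 and Mmp2 to the left within the same group of targets, and no gene of the urokinase receptor partners or the annexin and S100 partners is red.

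Among other receptors, 1 of 5 tested clearance receptor genes rose, against 5.60% of all tested genes, and 4 did not pass. This was Lrp8, the apolipoprotein E receptor 2 gene of the Lrp1 family, named after its value was seen. It had 30.2, 25.4, 21.6 and 23.1 CPM in S1P replicates 5 to 8, and 9.16, 10.8, 8.88 and 11.99 CPM in vehicle replicates 1 to 4, a 2.45-fold rise (edgeR, BH-adjusted p = 0.00321), with every S1P library above every vehicle library. Lrpap1, the chaperone of this receptor family, had 84.3 ± 15.9 CPM after S1P and 119 ± 25.9 CPM with vehicle (SD, n = 4 each; edgeR, BH-adjusted p = 0.132).

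Of 4 tested genes in the list of further inhibitors and their relatives, 1 fell, against 2.90% of all tested genes, and 3 did not pass. Serpinb2, an inhibitor of both activators named after its value was seen, had 1.23, 0.291, 0.514 and 0.287 CPM in S1P replicates 5 to 8, and 6.32, 4.08, 4.96 and 0.872 CPM in vehicle replicates 1 to 4 (log2 fold change -2.79, SE 0.65, edgeR, BH-adjusted p = 0.0304). Vehicle replicate 4 lay within the S1P range, and the call was lost with limma-voom (BH-adjusted p = 0.0638) and without any of S1P replicates 6, 7 and 8 and vehicle replicates 1, 2 and 3 (edgeR, BH-adjusted p of 0.0589 to 0.105). Cd109, a membrane relative of alpha-2-macroglobulin, had 315 ± 20.8 CPM after S1P and 189 ± 54.5 CPM with vehicle (SD, n = 4 each; edgeR, BH-adjusted p = 0.0520), a value that lies beside the threshold. It passed in 7 of the 16 alternatives, among them DESeq2 (BH-adjusted p = 0.00996), limma-voom (BH-adjusted p = 0.0446) and edgeR without vehicle replicate 2 or 4 (BH-adjusted p = 0.0379 and BH-adjusted p = 0.0146). Serpinb6a had 442 ± 29.3 CPM after S1P and 429.8 ± 105.3 CPM with vehicle (edgeR, BH-adjusted p = 0.899), and its span in the table overlaps the expressed genes Nqo2 and Ripk1.

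None of 7 tested partners of the urokinase receptor passed (edgeR, Benjamini-Hochberg). Among them 1 was higher and 1 lower at an unadjusted p under 0.05, against 24.9% of all tested genes in either direction. The integrin beta 1 gene Itgb1 had 2202 ± 135 CPM after S1P and 1691 ± 268 CPM with vehicle (SD, n = 4 each; edgeR, BH-adjusted p = 0.133), and Igf2r, whose protein binds the receptor, had 553 ± 97.7 CPM after S1P and 575 ± 73.9 CPM with vehicle (edgeR, BH-adjusted p = 0.847). The span of Igf2r overlaps the antisense gene Airn. None of 8 annexin and S100 partners passed either (edgeR, Benjamini-Hochberg). Among these 2 were higher at an unadjusted p under 0.05, again against 24.9% of all tested genes in either direction. Ahnak, a scaffold bound by the Anxa2 complex, had 1786 ± 104 CPM after S1P and 2000.0 ± 442 CPM with vehicle, and S100a4, which shares a stretch of 302 identical bases with 1 other annotated gene, had 1384 ± 269 CPM after S1P and 963 ± 239 CPM with vehicle (SD, n = 4 each; edgeR, BH-adjusted p = 0.567 and BH-adjusted p = 0.145).

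Of 3 tested surface receptors of plasminogen, 1 rose, against 5.60% of all tested genes. Hmgb1, a chromatin protein that also binds plasminogen outside the cell, had 233 ± 10.6 CPM after S1P and 149 ± 20.1 CPM with vehicle (SD, n = 4 each; 1.57-fold, edgeR, BH-adjusted p = 0.0100), but 125 other annotated genes hold a stretch at least 90% identical to it, 18 of them in the table, so its value is uncertain. Eno1, a glycolytic enzyme that can also bind plasminogen at the surface, had 308 ± 45.8 CPM after S1P and 261 ± 140 CPM with vehicle (edgeR, BH-adjusted p = 0.654), and is uncertain through Eno1b, 99.5% identical over 1736 bases. It passed without vehicle replicate 4 (log2 fold change 0.68, edgeR, BH-adjusted p = 0.0207). Plgrkt, a membrane plasminogen receptor found by its gene ID under an older symbol and named after its value was seen, had 44.7 ± 1.92 CPM after S1P and 41.3 ± 7.54 CPM with vehicle (edgeR, BH-adjusted p = 0.650).

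The genes most like Plat over the 8 libraries, by Pearson correlation of log2 CPM among tested genes with a mean of at least 10 CPM, were Dock4 (r = 0.99), Serpinb8 (r = 0.98) and Itpr1 (r = 0.97), and r stayed at 0.95 to 0.98 without vehicle replicates 2 and 4. Serpinb8, another serpin, had 36.003 ± 2.20 CPM after S1P and 17.4 ± 8.86 CPM with vehicle (SD, n = 4 each; 2.07-fold, edgeR, BH-adjusted p = 0.0582), and without vehicle replicate 1 it passed (edgeR, BH-adjusted p = 0.00279). Most like Plau were Pofut1 (r = 0.99), Eef1g (r = 0.96) and Zfp507 (r = 0.96), and without vehicle replicate 1 and S1P replicate 5 these were 0.966, 0.895 and 0.895. Most like Plaur were Bag2 (r = 0.98), Ccdc21 (r = 0.98) and 1810037I17Rik (r = 0.96), and without vehicle replicates 1 and 2 these were 0.926, 0.949 and 0.856. None of these genes passed the test over all genes. These are the highest of many correlations over 8 points that share a treatment and library scaling, and are given as a description.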

How the data were processed

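RNA sequencing of 8 libraries of C3H10T1/2 cells was used, 4 given S1P and 4 vehicle. The authors deposited whole-number read counts per Ensembl gene with mm9 coordinates, and columns were assigned to samples through their titles. STAR 2.5.3a and mm9 were used, per the submitters' processing notes, while for the counting tool, annotation and strand setting the sources used here give nothing. Library totals lie within 0.0818% of each other, and whether they were brought to a common size is not stated. A value of 3 counts equals 0.213 to 0.222 CPM, for counting error only.

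Genes were kept with filterByExpr (minimum count 10), scaled by TMM and tested with the robust quasi-likelihood test of edgeR 4.0.16 in R 4.3.3 on the 8 libraries, with a design of treatment alone and Benjamini-Hochberg (BH) adjustment over all 11844 genes (threshold 0.05). Log2 fold changes are given as S1P minus vehicle, and their SE and 95% interval were derived from the quasi-likelihood F statistic. The fit was tested on simulated data. Alternatives were other composition factors, filters, DESeq2 1.42.0, limma-voom (limma 3.58.1), a surrogate variable from sva 3.50.0 and leaving out libraries. The members, further gene lists and tests were chosen with earlier results of these data known. By rule, the text names all members and, of each further list, up to 4 called genes with the largest change, or the 2 with the highest mean where fewer than 2 were called, any other gene being marked as named after its values were seen, and for Plat, Plau and Plaur the 3 most correlated genes. Not every inhibitor of the system was analysed here. Of the further lists, 1 gene is counted but not reported here by itself. Exon lengths and GC content of the longest transcript came from GENCODE M21 by gene ID (98.2% of tested genes matched), similar transcripts from blastn 2.17.0 (at least 90% identity) and promoter sequences from RefSeq.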

Additional observations from a re-analysis of the deposited data

Results flagged for a closer look

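Over the 54 groups of 4 libraries examined, 2 had a library far from the other 3 by Dixon's criterion, and chance flags about 1 in 20 groups. In the vehicle group Plat had 19.6 CPM in replicate 1, against 9.15 to 10.2 CPM in replicates 2 to 4. Also with vehicle, Anxa2 had 930 CPM in replicate 3, and replicates 1, 2 and 4 had 1334 to 1362 CPM.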

How the results depend on the processing

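No paired fit was made. The replicate numbers of the 2 groups, 5 to 8 for S1P and 1 to 4 for vehicle, are not shared. The labels name no pairs, and the fits here leave out any pairing there was. Over the 16 alternatives, Plat, Plaur, Lrp1, Serpine2, Anxa2 and Plau kept their direction, and Anxa2 and Plau passed the test in none of them. S100a10 ranged from -0.055 (without S1P replicate 5) to 0.199 when each library was left out, and turned to -0.099 without vehicle replicate 4 and S1P replicate 5 together. Leaving out each library gave log2 fold changes of 0.87 to 1.29 for Plat, 0.84 to 1.57 for Plaur and -1.18 to -0.58 for Lrp1. With vehicle replicate 4 and S1P replicate 5 both left out, Plat lost its call at 0.86. Plaur at 1.23, Serpine2 at -1.22 and Lrp1 at -0.68 then passed, so 2 members were lower. S1P replicate 5 was the highest S1P library for Serpine2, and vehicle replicate 4 the highest vehicle library for Lrp1 and Plaur. These calls thus rest on which libraries were left out. With a surrogate variable Plaur (1.43) and Lrp1 (-0.70) passed, so 2 members were higher and 1 lower, and DESeq2 passed Lrp1 at -1.02, again 1 lower. Leaving out each library gave 0 to 2 members higher, 4 to 9 further pathway genes higher and 1 to 4 lower, 333 to 1133 tested genes higher and 101 to 723 lower. The further genes higher numbered 9 with a surrogate variable and 9 without both libraries. All tested genes numbered 1471 higher and 1015 lower with a surrogate variable, 1178 and 934 without both libraries, and DESeq2 gave 794 lower.

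The same settings, added after the data were seen for 28 named genes that are no members, gave 407 of 448 results with the same direction and call, 12 lost calls and 19 gained ones. The 10 reversals were all of genes near 0: Serpinb6a was -0.010 with upper-quartile factors, -0.023 with a surrogate variable, -0.10 without vehicle replicate 4 and -0.095 without both libraries, Igf2r was 0.058 without S1P replicate 5, 0.019 without vehicle replicate 2 and 0.053 without both libraries, Plgrkt was -0.011 without vehicle replicate 4, and Zfp507 was -0.0068 with upper-quartile factors and -0.0083 without vehicle replicate 1. Leaving out each library gave -0.10 to 0.174 for Serpinb6a, -0.155 to 0.058 for Igf2r, -0.011 to 0.158 for Plgrkt and -0.0083 to 0.0744 for Zfp507. The cause of these changes was not tested. Plaur had 15 to 111 counts a library and Serpinb2 had 4 to 89, and the spread of each was above counting error in both groups.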

Other observations

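S1P replicate 5 and vehicle replicate 1 were the highest libraries of their groups for Serpine2 and S100a10 and the lowest for Plau. Serpine2 had 1554 CPM in S1P replicate 5 and 467 to 656 CPM in the other S1P libraries, and 2117 CPM in vehicle replicate 1 and 757 to 1018 CPM in the other vehicle libraries. Plau had 14.0 CPM in S1P replicate 5 and 17.0 to 19.7 CPM in the other S1P libraries, and 12.2 CPM in vehicle replicate 1 and 14.3 to 18.5 CPM in the other vehicle libraries. The labels give no batch that these libraries share.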
